A study of Mus musculus with 2 samples.

Results

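The expression of 9 genes of blood coagulation and of fibrinolysis, the breakdown of fibrin, was examined in resident macrophages of the mouse kidney. The 9 genes were F13a1, F3, F5, F7, F10, Thbd, Procr, Plau and Plaur, out of 48795 genes in the table of read counts. They were chosen with the values in view, because nearly all F13a1 reads lay in 1 of the libraries, so the F13a1 difference is a description and not a finding supported by a test. R2a macrophages were sorted as CD11c-positive and R2b macrophages as CD11c-negative, both from kidneys of adult wild-type C57BL/6 mice 8 weeks old. Each population gave 1 library, made from RNA pooled over 6 to 8 mice. No difference therefore has a replicate check, no p-value is given, and the intervals in parentheses are exact 95% intervals that cover counting error only.

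Coagulation starts when tissue factor, the product of F3, meets factor VII in plasma, and the pair activates factor X. Factor Xa with its cofactor factor V then turns prothrombin into thrombin, which makes fibrin, and the transglutaminase factor XIII cross-links the fibrin strands. Thrombomodulin and the endothelial protein C receptor, encoded by Thbd and Procr, redirect thrombin to the anticoagulant protein C pathway. Urokinase, encoded by Plau, and its receptor, encoded by Plaur, form plasmin at the cell surface, and plasmin dissolves fibrin. Macrophages are known to make the A subunit of factor XIII, encoded by F13a1, and to use urokinase and its receptor when they migrate and clear fibrin.

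Reads on genes numbered 11811923 in R2a and 23915896 in R2b. Levels are given as CPM, the reads of a gene relative to the library total after TMM scaling. For the log2 ratio, R2a over R2b, 0.5 was added to each CPM, which understates differences of genes with few reads, and folds are ratios of CPM. A gene was called when its log2 ratio was 1 or more in size, its higher CPM was 1 or more and the interval of its fold did not include 1. The sort marker transcript Itgax stood at 367 CPM in R2a against 48.9 CPM in R2b. The 10 macrophage identity markers, among them Csf1r and Adgre1, lay between 47.0 and 2533 CPM in R2a and between 61.7 and 3400 CPM in R2b, and 0 of them were called. All 10 had a log2 ratio below 0, with a median of -0.20.

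F13a1 separated the libraries, whereas the other 8 genes did not pass the rule. F13a1 had 4 reads in R2a against 787 in R2b. Its level was 0.330 CPM (0.0898 to 0.844) in R2a against 33.8 CPM in R2b, 103 times lower in R2a (39.9 to 378). R2a held 0.506% of the F13a1 reads of both libraries (0.138 to 1.29, Clopper-Pearson), where a gene of equal level would have 34.3% of its reads there. At the level of R2b, 410.5 reads would have fallen in R2a. The log2 ratio of -5.37 was the lowest of all 15603 genes with at least 1 CPM in the higher library. RNA of sorted cell pools does not tell fewer F13a1-expressing cells from less F13a1 RNA per cell.

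**Figure D1:**
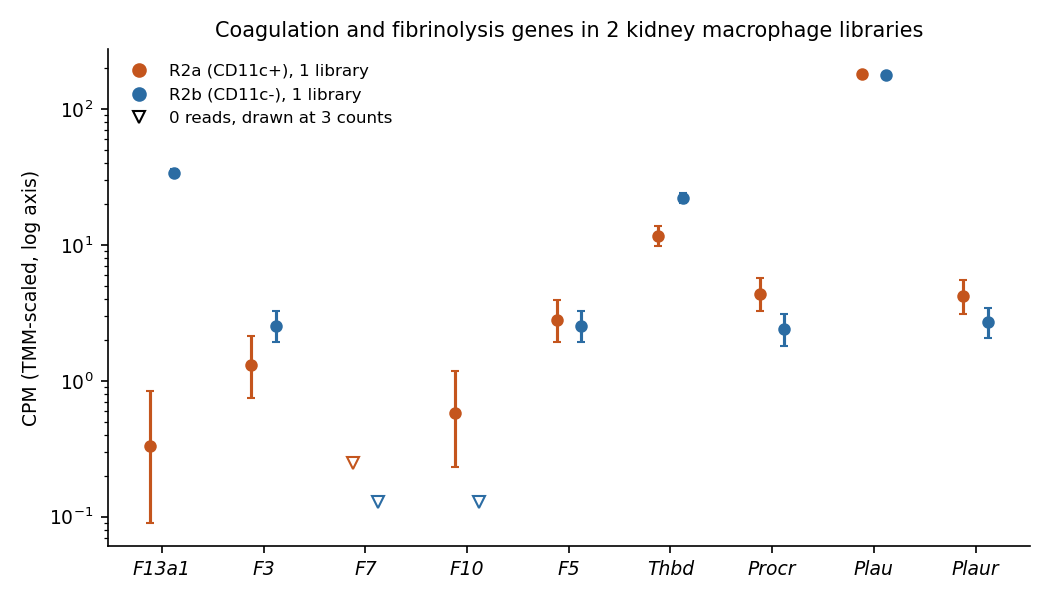
CPM of the 9 genes in R2a (orange) and R2b (blue) on a log axis, 1 library each, with exact 95% Poisson intervals of the counting error as bars and open triangles at the level of 3 counts where a gene had 0 reads. F13a1 lies at 0.330 CPM in R2a against 33.8 CPM in R2b, while Plau lies at 181 and 179 CPM.

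Of the 7 genes that reached 1 CPM in a library, 1 was called lower in R2a and 0 were called higher. Among all genes tested 1.84% were called lower and 1.93% higher, and since F13a1 was chosen from this comparison, nothing is read from its share. The median log2 ratio was 0.01 for the 7 genes and -0.01 for all genes tested. F7 and F10 did not reach 1 CPM. Of the 7, the next in size of difference was Thbd, just outside the rule at a log2 ratio of -0.90.

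**Figure D2:**
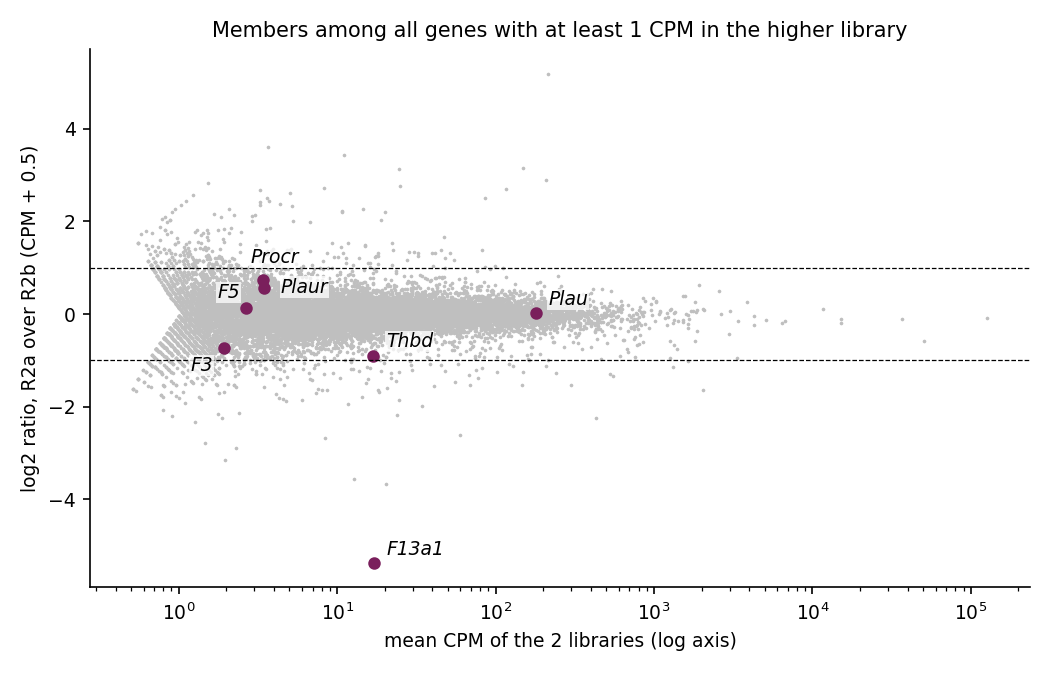
The log2 ratio of R2a over R2b (CPM + 0.5) is plotted against the mean CPM of the libraries on a log axis for the 15603 genes tested, in grey, and for the 7 genes studied here that reached 1 CPM, in purple, with dashed lines at the size rule of 1 and -1. F13a1 lies at -5.37, below all other points, and the other 6 lie between -0.90 and 0.74.

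F13a1 (ENSMUSG00000039109.15) lies on the minus strand of GRCm38 chromosome 13, from 36867178 to 37050244, and spans 183 kb. The protein-coding genes with the nearest starts are Nrn1, with 0 reads in both libraries, and Ly86, a partner of the macrophage receptor CD180. Ly86, whose start is 295 kb away, stood at 234 CPM in R2a against 201 CPM in R2b and did not show the difference of F13a1. Nrn1, without reads, could not show one. The annotation places an antisense gene, Gm30489, over 74 bases of F13a1 exons, and the deposited read counts have no entry for it.

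The RefSeq table lists 2 starts for F13a1, shown because this gene had the lowest ratio, and counts per gene do not tell which start was used. Each sequence below runs from 250 bases before the start to 50 bases after it and was taken from RefSeq (GRCm38.p6, minus strand). Capitals mark AGGAAGT, the letters bound by ETS factors such as PU.1, a factor that macrophages need to form. The motifs searched, on both strands and with no overlap between different motifs, were AGGAAGT, the AP-1 motif TGANTCA, the SP/KLF motif GGGCGG and the TATA box TATAAA.
F13a1 outer start, chr13:37050195-37050494: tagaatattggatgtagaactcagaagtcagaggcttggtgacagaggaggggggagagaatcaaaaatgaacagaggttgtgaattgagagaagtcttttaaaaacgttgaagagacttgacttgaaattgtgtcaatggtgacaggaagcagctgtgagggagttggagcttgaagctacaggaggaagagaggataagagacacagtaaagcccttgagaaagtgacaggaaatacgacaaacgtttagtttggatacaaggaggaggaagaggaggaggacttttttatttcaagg
F13a1 inner start, chr13:37049164-37049463: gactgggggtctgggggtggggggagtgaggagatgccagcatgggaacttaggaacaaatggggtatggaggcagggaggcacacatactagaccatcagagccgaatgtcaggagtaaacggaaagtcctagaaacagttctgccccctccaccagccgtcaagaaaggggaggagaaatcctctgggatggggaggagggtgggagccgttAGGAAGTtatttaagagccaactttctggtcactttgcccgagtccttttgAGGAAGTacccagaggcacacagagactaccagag
The inner start held AGGAAGT at 2 places, beginning 36 bases before and 15 bases after the start, and the outer start held 0 of the 4 motifs. AGGAAGT was found in 9.35% of the 32851 promoters in the table. A match is a description of the letters and not of a bound site.

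The genes with at least 10 CPM in the higher library whose log2 ratio was nearest to that of F13a1, over these 2 libraries, were Cd163, Alox5, Slc6a12, Fcrls and Ahnak. Their log2 ratios differed from that of F13a1 by 1.71 for the haemoglobin scavenger receptor Cd163, 1.81 for the lipoxygenase Alox5, 2.69 for the transporter Slc6a12, 2.75 for the Fc receptor-like gene Fcrls and 3.13 for the scaffold gene Ahnak. Of 8842 genes at this level, 0 had a lower ratio than F13a1, and the nearest gene, Cd163, was 14.96 times lower in R2a.

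F13a1 RNA is also abundant in platelets and megakaryocytes, so their markers are given beside it. Of 12 platelet markers 2 were called lower and 0 higher, and their summed level was 19.4 CPM in R2a against 46.5 CPM in R2b. The chemokine Pf4, which some tissue macrophages also make, accounted for 10.3 CPM in R2a against 38.5 CPM in R2b, 3.74 times lower in R2a (3.10 to 4.55). The 11 other markers summed to 9.06 CPM in R2a against 7.91 CPM in R2b. Among them the tubulin Tubb1, with 1 read in R2a against 26 in R2b, was 13.6 times lower (2.23 to 556). The platelet chemokine Ppbp had 0 reads in R2a against 21 in R2b. The platelet receptor genes Itga2b, Gp9 and Gp1ba had 9, 29 and 36 reads in R2a and 7, 41 and 47 in R2b. Gp1bb and Gp5 had 0 reads in both.

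F13a1 is also used as a gene of classical monocytes. Of 11 markers of classical and nonclassical monocytes 2 were called higher in R2a and 0 lower. These were Ccr2, of classical monocytes, at 267 CPM against 29.7 CPM, and Treml4, of nonclassical ones, at 8.98 CPM against 1.38 CPM. The monocyte markers Vcan and Plac8 were between 1.24 and 1.68 CPM in both libraries, and Ly6c2 had 5 reads in R2a against 0 in R2b. S100a4 had 0 reads in both. Of 6 mast cell markers 5 had 0 reads in both libraries, Cpa3, Mcpt4, Tpsb2, Fcer1a and Ms4a2, and the sixth, the receptor Kit, was at 4.53 and 3.61 CPM. Neutrophil markers summed to 61.0 CPM in R2a against 61.1 CPM in R2b, nearly all from the receptor Csf3r, with 0 reads of Ly6g, Mpo and Mmp8 in both libraries. Of 8 fibroblast and pericyte markers 6 reached 1 CPM in a library with a median log2 ratio of -0.97 and 3 were called lower in R2a, with Col1a2 at 3.87 against 8.55 CPM and Col3a1 at 1.98 against 5.16 CPM, and the list summed to 13.9 and 25.5 CPM. Lum had 0 reads in both. The part of platelets and of these cells in the F13a1 result was not tested.

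**Figure D3:**
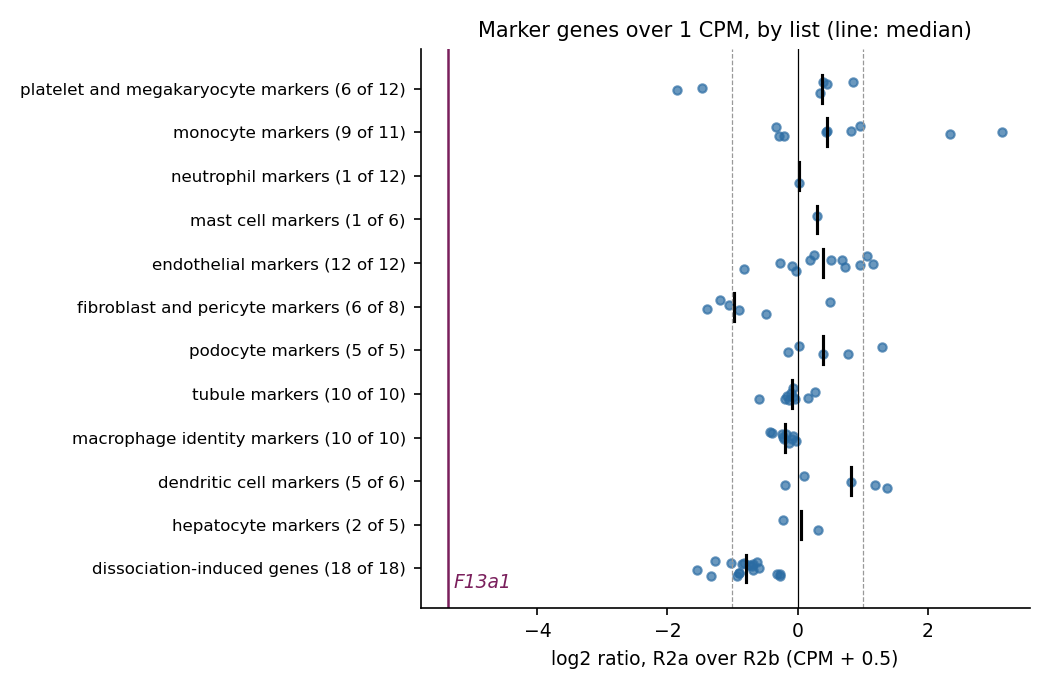
Each point is the log2 ratio of R2a over R2b (CPM + 0.5) of 1 marker gene that reached 1 CPM, by list, with the number of plotted and listed genes beside the name, the median as a black line, dashed lines at 1 and -1, and F13a1 as a purple line at -5.37. The plotted marker nearest to F13a1, Pf4, lies at -1.85, and all 18 dissociation-induced genes lie below 0.

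Factor XIII in plasma pairs the A subunit with a carrier B subunit from F13b, a gene added to the named ones because it is the partner of F13a1. F13b had 209 reads in R2a against 408 in R2b, or 17.2 and 17.5 CPM, a ratio of 0.982 (0.827 to 1.16). The partner was thus at nearly the same level in both libraries while the A subunit was not. Tubule RNA was present in both libraries, as given below for Plau, and its part in the F13b value was not tested. Of the 8 other transglutaminase genes listed, 2 reached 1 CPM and 0 were called. Tgm2, the tissue transglutaminase, stood at 27.5 CPM in R2a against 23.6 CPM in R2b (log2 ratio 0.22). Tgm1, which cross-links the cell envelope of skin keratinocytes, stood at 8.07 and 13.1 CPM, with a log2 ratio of -0.67. Tgm4 and Epb42, the latter a structural protein of the red cell membrane, were under 1 CPM, and Tgm5 and Tgm6 had 0 reads in both libraries.

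F3 (chromosome 3, 121723537 to 121735048), the trigger of coagulation, had 16 reads in R2a against 59 in R2b, or 1.32 CPM (0.753 to 2.14) and 2.54 CPM. It was 1.92 times lower in R2a (1.09 to 3.58) with a log2 ratio of -0.74, and was not called. F7 (chromosome 8, 13026034 to 13035809), the partner of tissue factor, had 0 reads in both libraries, which allows a level of up to 0.247 CPM in R2a and 0.129 CPM in R2b (3 counts). F10 (chromosome 8, 13037308 to 13056676), whose start lies 11.3 kb from that of F7, had 7 reads in R2a against 0 in R2b. Set against 3 counts in R2b its level of 0.577 CPM was 4.47-fold higher in R2a. The counting interval of the fold reached down to 2.76, and F10 lay under the CPM minimum in both. The next gene along the chromosome, Proz, encodes a cofactor in the inhibition of factor Xa and stood at 5.27 and 5.46 CPM. In this cluster F10 therefore had reads in R2a only, while its neighbours had none or were level.

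F5 (chromosome 1, 164151838 to 164220277), the cofactor of factor Xa, had 34 reads in R2a against 59 in R2b. These were 2.80 CPM (1.94 to 3.91) and 2.54 CPM, a log2 ratio of 0.12 and a fold of 1.10 (0.702 to 1.71). The counting interval includes 1, so no difference in F5 was detectable at this depth. An antisense gene, Gm16548, that shares 262 bases with exons of F5 had 0 reads in both libraries, and so did the adhesion gene Selp next to it.

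The anticoagulant receptors had ratios on opposite sides of 0, and neither passed the rule. Thbd (chromosome 2, 148404466 to 148408188), which binds thrombin, had 142 reads in R2a against 517 in R2b. Its level was 11.7 CPM (9.85 to 13.8) in R2a against 22.2 CPM in R2b, 1.90 times lower in R2a (1.57 to 2.30). Cd93, the gene with the nearest higher start at 35.4 kb from that of Thbd, encodes another lectin-like receptor and had a log2 ratio of -0.71 at 305 CPM in R2a against 498 CPM in R2b. Procr (chromosome 2, 155751117 to 155755471), which presents protein C to the thrombin complex, had 53 reads in R2a against 56 in R2b. Its level was 4.37 CPM (3.27 to 5.71) in R2a against 2.41 CPM in R2b, 1.81-fold higher (1.22 to 2.69) with a log2 ratio of 0.74. With a size rule of 1.5-fold, F3 and Thbd were called lower and Procr higher, where 5.79% and 5.57% of all genes tested were.

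Plau and Plaur are the urokinase pair. Plau (chromosome 14, 20836660 to 20843385) had 2194 reads in R2a against 4172 in R2b, or 181 CPM (173 to 189) and 179 CPM. Its fold was 1.01 (0.957 to 1.06), the narrowest interval among the 9 genes. Plaur (chromosome 7, 24462484 to 24475968) had 51 reads in R2a against 63 in R2b, or 4.20 CPM (3.13 to 5.52) and 2.71 CPM. Its fold of 1.55 (1.05 to 2.28) did not pass the rule. Plau RNA was thus abundant and level, whereas Plaur RNA was scarce in both libraries. Tubule markers summed to 2947 CPM in R2a and 3228 CPM in R2b, and the part of tubule RNA in the Plau value was not tested. The neighbours of the 9 genes not named elsewhere that reached 1 CPM, Abcd3, Slc19a2, Mcf2l, Mmp24, Camk2g, Vcl and Cadm4, had log2 ratios between -0.26 and 0.37. Of those under 1 CPM, Sstr4 had 3 reads in R2a against 18 in R2b, Irgc1 had 1 against 0, and 4930432M17Rik and Gm17581 had 0 in both.

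Per length of exon, as TPM, Plau led in both libraries at 194 TPM in R2a and 188 TPM in R2b, above 97.8% of the genes tested. Thbd followed at 7.97 TPM in R2a and 14.8 TPM in R2b. In R2b F13a1 was the third in order, at 12.4 TPM (11.6 to 13.3), below Thbd beyond counting error and above Procr at 2.94 TPM, while in R2a it was the eighth, at 0.124 TPM (0.0338 to 0.318). Procr and Plaur followed Thbd in R2a at 5.45 and 4.07 TPM, where the intervals of Thbd and Procr overlapped, and those of Procr and Plaur did too. In R2b the intervals of Procr, Plaur and F3 overlapped in order, at 2.94, 2.56 and 2.49 TPM. F3 and F5 were at 1.32 and 0.956 TPM in R2a with overlapping intervals, and in R2b F5 at 0.846 TPM was below F3 beyond counting error. With the longest transcript as the length, F13a1 stood at 18.6 TPM in R2b and Thbd at 12.96 TPM, so the order of that pair depended on the gene model.

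Promoters of 7 of the 9 genes, with 8 starts in all, were in the RefSeq table. The AP-1 motif TGANTCA lay at 3 of the 8 starts, against 7.81% of all promoters there. With so few promoters, no enrichment is read from this share or from those of the other motifs. AP-1 is the dimer of Fos and Jun proteins. The 3 stretches below, on the plus strand of GRCm38.p6, show these sites in capitals with 25 bases on each side, because genes of AP-1 subunits differed between the libraries.
F3, chr3:121723366-121723433: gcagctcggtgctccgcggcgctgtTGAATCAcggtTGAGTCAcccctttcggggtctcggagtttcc
Procr, chr2:155751038-155751094: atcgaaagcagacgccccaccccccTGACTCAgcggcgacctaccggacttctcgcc
Plaur, chr7:24462389-24462445: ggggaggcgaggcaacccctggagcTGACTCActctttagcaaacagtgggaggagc
The sites began 146 and 135 bases before the start in F3, 154 bases before it in Procr and 69 bases before it in Plaur. GGGCGG was found in F3, F5 and Plaur, against 35.7% of all promoters, and TATAAA in F3, against 13.6%. The TATAAA match in F3 was on the opposite strand, and its letters began 43 bases after the start. Thbd and Plau had no entry in the table.

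The 18 genes known to be induced by tissue dissociation, which include the AP-1 genes, were all below 0 with a median log2 ratio of -0.79, and 4 of them were called lower in R2a. Fos stood at 1079 CPM in R2a against 2190 CPM in R2b, Fosb at 314 and 792 CPM, Fosl2 at 74.6 and 218 CPM and Egr2 at 12.6 and 31.1 CPM. The list summed to 6580 CPM in R2a against 11521 CPM in R2b. The genes with AP-1 letters, F3, Procr and Plaur, had log2 ratios of -0.74, 0.74 and 0.55, and none was called. Whether AP-1 acts on these genes was not tested. The part of dissociation in the values of Thbd and F3 was not tested.

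The rest of the pathway was described with 52 genes in 5 lists, of which 31 reached 1 CPM, 1 was called higher and 2 lower in R2a. Their median log2 ratio was -0.05. Of the 13 other fibrinolysis genes 1 was called higher and 1 was called lower. Plat, tissue plasminogen activator, had 165 reads in R2a against 128 in R2b, or 13.6 and 5.50 CPM, 2.47-fold higher in R2a (1.95 to 3.14). Plat was thus higher in R2a, whereas the gene of the other plasminogen activator, Plau, was level. Anxa2, which encodes a cell-surface protein that binds plasminogen and its activator, stood at 14.0 CPM in R2a against 9.71 CPM in R2b, a log2 ratio of 0.51, and was not called.

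Thbs1, the adhesive glycoprotein thrombospondin, had 446 reads in R2a against 1831 in R2b, 2.14 times lower in R2a (1.93 to 2.38). Lrp1, the endocytic receptor that takes up many proteases, stood at 312 CPM in R2a against 612 CPM in R2b, and its log2 ratio of -0.97 lay just outside the rule. The plasmin inhibitor Serpinf2 had a log2 ratio of 0.01 at 14.9 and 14.8 CPM. Plasminogen itself, Plg, and the inhibitor Serpinb2 had 0 reads in both libraries. The list had a median log2 ratio of 0.01 over 9 genes.

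Podocytes and endothelial cells are known sources of Plat, and the summed levels of their markers were higher in R2a than in R2b. Of 5 podocyte markers 1 was called higher, Wt1 at 5.27 against 1.85 CPM, and 4 had a log2 ratio above 0, while that of Nphs1 was -0.14. The list summed to 84.5 CPM in R2a against 55.6 CPM in R2b. Of 12 endothelial markers 2 were called higher, Cldn5 and Robo4, each under 5 CPM, and 8 had a log2 ratio above 0. The list summed to 75.9 and 55.4 CPM, of which Pecam1 held 22.7 and 11.3 CPM. Plvap, at 2.88 CPM in R2a against 5.50 CPM in R2b, was 1.91 times lower in R2a (1.30 to 2.86), and Egfl7, Cdh5 and Emcn also had log2 ratios below 0. No marker of these lists had 0 reads. Procr, an endothelial gene, and the von Willebrand factor gene Vwf, at 4.04 and 2.88 CPM, also had log2 ratios above 0. The counting interval of the Vwf fold included 1, so no difference in Vwf was detectable. Thbd, known from endothelium, had a log2 ratio below 0, and so did the coagulation genes F8 and Tfpi. The interval of F8 also included 1, whereas that of Tfpi did not. The part of podocytes and endothelial cells in the values of Plat and Procr was not tested. Dendritic cell markers, of which 2 of 6 were called higher, Xcr1 and Dpp4, summed to 118 and 58.5 CPM. Dpp4 alone held 65.3 and 24.8 CPM of these sums, and the cells that gave its RNA were not identified. Of the others, Clec9a and Flt3 had log2 ratios of 0.83 and 0.10, Zbtb46 of -0.20 and Cd209a, under 1 CPM, of -0.27.

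**Figure D4:**
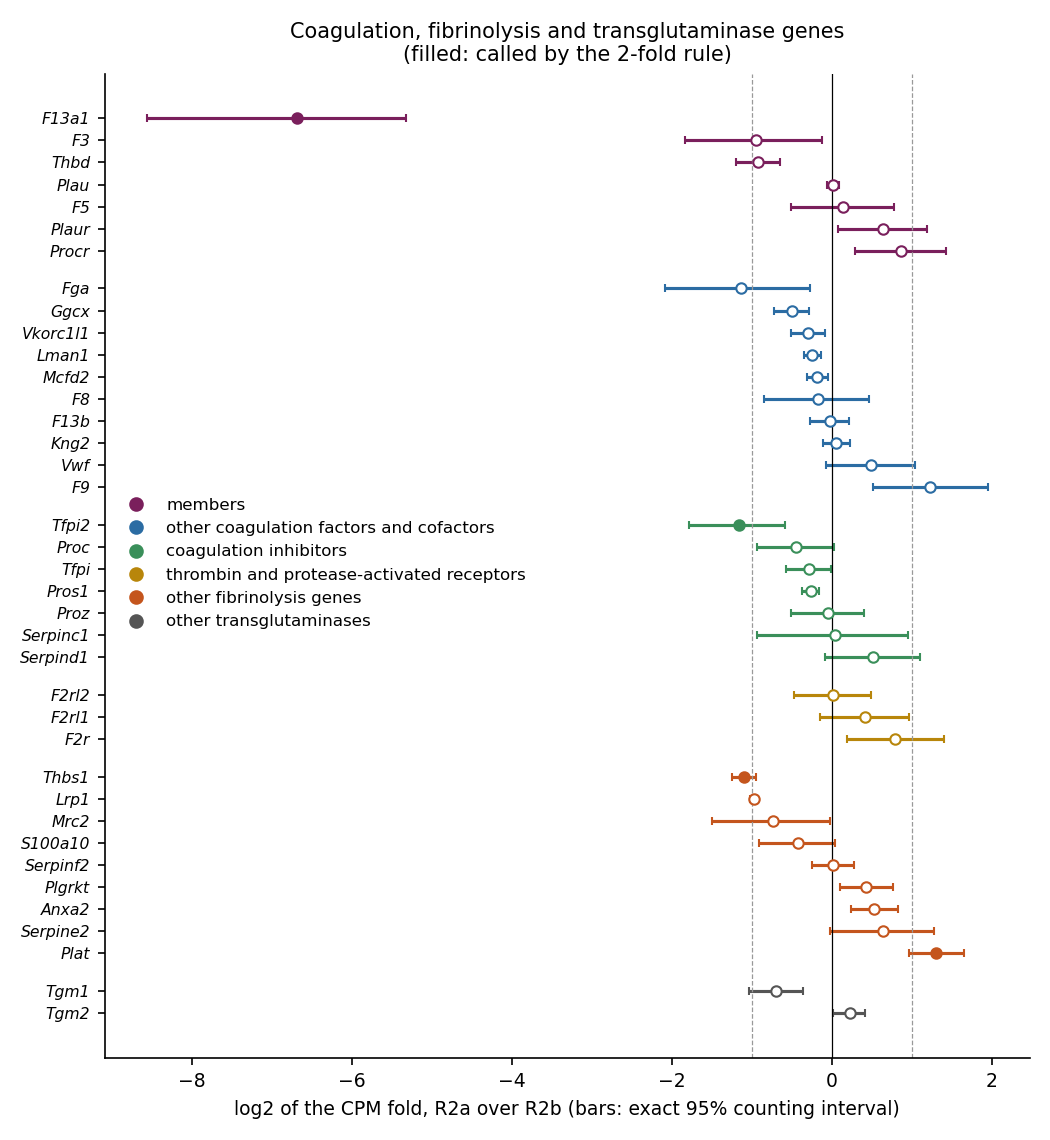
Log2 of the CPM fold of R2a over R2b for the 38 coagulation, fibrinolysis and transglutaminase genes that reached 1 CPM, coloured by list, with exact 95% counting intervals as bars, filled points for called genes and dashed lines at 1 and -1. F13a1 stands apart on the left, and the other called genes are Tfpi2 and Thbs1, lower in R2a, and Plat, higher.

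Of the 18 other coagulation factors and cofactors 10 reached 1 CPM, 0 were called, and the median log2 ratio was -0.17. The most abundant were Lman1 and Mcfd2, which form the receptor that carries factors V and VIII out of the endoplasmic reticulum, at 85.4 and 58.5 CPM in R2a and 101 and 66.5 CPM in R2b. Kng2, a kininogen gene, stood at 39.0 and 37.6 CPM, and Ggcx, the carboxylase that vitamin K-dependent factors need, at 19.9 and 28.1 CPM with a log2 ratio of -0.49. F2, F11 and F12, which encode prothrombin and factors of the contact pathway, had 0 reads in both libraries. Markers of hepatocytes, the usual source of clotting factors, summed to 4.78 CPM in R2a against 4.51 CPM in R2b, with 0 reads of Ahsg in both. Tubule markers summed to 2947 and 3228 CPM, and 0 of 10 were called.

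Of 9 coagulation inhibitors 7 reached 1 CPM, 1 was called lower and 0 higher, with a median log2 ratio of -0.27. Tfpi2, a Kunitz-type inhibitor of plasmin and of factor VIIa with tissue factor, had 30 reads in R2a against 129 in R2b, 2.24 times lower in R2a (1.498 to 3.46), and its log2 ratio of -1.02 lay at the edge of the rule. It was not called under total-count scaling, with an added value of 2 CPM or with R2b thinned to the total of R2a. Pros1, the cofactor protein S, which is also a ligand for uptake of dying cells, stood at 82.0 and 98.7 CPM. Tfpi, the main inhibitor of the tissue factor pathway, stood at 12.1 and 14.8 CPM, Proc at 4.28 and 5.84 CPM and Proz as given above. Serpina5 had 0 reads in both libraries. Of the 4 receptors cleaved by thrombin and related proteases 0 were called. F2r, the main thrombin receptor, stood at 3.79 CPM in R2a against 2.19 CPM in R2b, a fold of 1.73 (1.14 to 2.63), F2rl1 at 3.95 and 2.96 CPM and F2rl2 at 4.70 and 4.64 CPM, while F2rl3 had 2 reads in R2a against 3 in R2b.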

How the data were processed

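RNA was sequenced as paired reads of 75 bases from 2 libraries of sorted kidney macrophages, 1 per population, so samples were grouped by the sort label and no test between groups was possible. The authors deposited whole-number read counts per gene, not normalised. Base calls, per the submitters' processing notes, came from bcl2fastq 2.18.0.12, reads were aligned with STAR 2.5.3 to GRCm38 and counted with HTSeq 0.9.1. The sources used here do not give the strand setting or the annotation of the count, so a gene cannot be told apart from its antisense partner. The same notes name DESeq2, whose output was not used here. Summary rows of the counter, which held 52.1% of all rows' reads in R2a and 49.7% in R2b, stayed out of library sizes.

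Of 48795 identifiers 48435 matched GENCODE M21 (GRCm38) without their version, which gave symbols, positions and exon lengths. F13a1 and Plau matched only without the version. Counts were scaled with TMM in edgeR 4.0.16 (R 4.3.3), and intervals were computed with scipy 1.17.1. TPM used the union of a gene's exons as its length. The calls were tested on simulated data with set folds and counting error only, which cannot show how libraries of other pools would vary. A count of 0 was given the limit of 3 counts. Without molecular identifiers PCR copies count as separate reads, and intervals and limits cover counting error only. The genes and lists were chosen with earlier results of these data known.

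The genes named were the 9 studied here, their nearest protein-coding neighbours, in each pathway list the called genes and the 4 with the highest mean CPM, in each marker list the called genes with at least 5 CPM and those with 0 reads, and the 5 genes nearest to F13a1 in log2 ratio. Other genes were named after their values were seen. A few genes first placed in the lists were left out of them and of all list counts, and are not reported here. Alternatives were scaling by total count, by upper quartile and by DESeq2 1.42.0 size factors, 0.1 or 2 CPM added in place of 0.5, a CPM minimum of 5 or none, size rules of 1.5-fold and 4-fold, random thinning of R2b to the depth of R2a, and the longest transcript as the length.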

Additional observations from a re-analysis of the deposited data

Results flagged for a closer look

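Signal outside the gene counts lay in 3 summary rows of the counter, each of which held far more than 3 counts. In R2a 41.2% of the reads of all rows, and in R2b 38.9%, were assigned to no feature by the counter, whose strand setting is not known. Reads assigned to more than 1 gene were 2.42% in R2a and 2.51% in R2b, and reads aligned to more than 1 place were 8.50% in R2a and 8.33% in R2b. These rows name no gene, so the share that belongs to F13a1 or to the other coagulation genes was not tested.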

How the results depend on the processing

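F13a1 was called lower in R2a under all 10 alternatives to the calls. Its log2 ratio ranged from -6.30 with an added value of 0.1 CPM to -3.94 with one of 2 CPM. The other 7 genes with reads kept the sign of their log2 ratio under the alternatives run, with Plau between 0.01 and 0.09 and F5 between 0.08 and 0.19. Among the 9 genes the count called higher went from 0 to 1 without a CPM minimum, which admits F10, and to 1 (Procr) with a 1.5-fold rule, which gave 3 lower against 1. Among the 52 other pathway genes, 1 higher and 2 lower became 3 and 6 with the 1.5-fold rule and 0 and 0 with the 4-fold rule. Only 1 was lower, Thbs1, under total-count scaling, with 2 CPM added and with R2b thinned, and the cause was not tested. Under total-count scaling and with 0.1 CPM added F9 was also called higher, which gave 2, and with 0.1 CPM added Fga was called lower. Over all genes, 301 higher and 287 lower became 377 and 240 under total-count scaling, 493 and 462 with 0.1 CPM added, 82 and 78 with 2 CPM added, 92 and 97 at a CPM minimum of 5, 869 and 903 with the 1.5-fold rule and 41 and 16 with the 4-fold rule. No paired analysis was possible because each population has 1 library. Depth limits F3, F5, F10, Procr and Plaur, each with under 70 reads per library.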
